A study of Mus musculus with 2 samples.

Results

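The genes described here encode the GATA cofactors FOG1 (Zfpm1) and FOG2 (Zfpm2), the repressors GFI1B (Gfi1b) and GFI1 (Gfi1), the ETO family corepressors ETO2 (Cbfa2t3), MTGR1 (Cbfa2t2) and ETO (Runx1t1), and the LSD1 and CoREST subunits (Kdm1a, Rcor1). They are 9 of the 21853 protein-coding genes of the GENCODE annotation on mm10, and they were chosen by name, for their roles; the rule uses no measured value, though earlier results of these data were known when they were chosen. Chromatin accessibility around them was measured by ATAC-seq, in which a transposase cuts open DNA, in 2 libraries of megakaryocyte-erythroid progenitors (MEP), the marrow cells from which red cells and platelets descend. The mice were C57BL/6J males of 5 to 6 weeks, with no treatment or modified allele in the labels, and each library was made from 50000 primary cells. The libraries are biological replicates 1 and 2 of 1 group. Both name the same donor entry, so it is not stated whether they came from separate animals, and the label of replicate 1 names several sequencers. With 1 group there is no comparison between conditions. Values of the 9 genes are set against all protein-coding genes or all distal regions of the same list, and a difference between the libraries covers whatever separated these samples.

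As background, FOG1 does not need to bind DNA itself: it holds the amino-terminal zinc finger of GATA1, brings the NuRD and CtBP corepressors to GATA1 targets, and is required for megakaryocyte and erythroid development in mice. GFI1B and GFI1 are zinc finger proteins whose SNAG domain binds LSD1, a histone demethylase that works together with the scaffold CoREST. ETO2 is a corepressor in the TAL1 and GATA1 complexes that assemble on paired E-box and GATA sites in erythroid and megakaryocytic cells.

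The peak lists of the authors give each peak a fold over local background and a −log10 p, both values of their peak caller. Each library has a strict list, thresholded on the irreproducible discovery rate (IDR) between random splits of that library, and a longer pseudoreplicated list. A conservative list holds peaks whose rank repeated between both libraries, with pooled folds. The strict lists held 26353 regions in replicate 1 and 28142 in replicate 2, and the conservative list held 46200. A promoter region overlapped 1 kb on either side of a protein-coding transcription start site (TSS) of the gene. A distal region overlapped no such 1 kb window of any protein-coding gene. Its summit lay inside the gene or within 50 kb of the most upstream TSS of the gene. Among genes that mark the labelled cell type, the promoters of Klf1, Epor and Gata1 were in both strict lists, with folds of 4.86, 7.93 and 4.69 in replicate 1 and 6.34, 9.35 and 5.12 in replicate 2. The megakaryocyte gene Itga2b was in the longer lists alone (3.04 in replicate 1 and 3.86 in replicate 2), and the T cell gene Cd3e and the hepatocyte gene Alb had no promoter region in any list of either library.

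The conservative list placed 49 distal regions around the 9 genes. Shown next are the 201 bases centred on the summit of those that the results below turn on, read 5′ to 3′ on the plus strand of mm10. Capitals mark GATA matches (GATA after an A or T and before an A or G), RUNX matches (TGTGGT or TGCGGT) and matches to the paired element of an E-box part and a GATA site (CTG, then 8 or 9 bases, then GATAA), each on either strand. The Gfi1 region is shown because it had the highest fold of the 49. The Cbfa2t3 region holds a paired element, the Gfi1b and Zfpm1 regions hold GATA matches at low fold, and the Rcor1 region had the second highest fold and no GATA match. That Rcor1 region lies nearer to the start of another protein-coding gene than to that of Rcor1.
Gfi1 33.3 kb upstream, chr5:107759187-107759387: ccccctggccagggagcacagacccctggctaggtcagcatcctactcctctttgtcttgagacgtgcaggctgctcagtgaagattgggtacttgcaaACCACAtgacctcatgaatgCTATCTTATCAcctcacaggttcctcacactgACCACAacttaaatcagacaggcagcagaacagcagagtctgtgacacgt
Cbfa2t3 13.4 kb downstream, chr8:122685602-122685802: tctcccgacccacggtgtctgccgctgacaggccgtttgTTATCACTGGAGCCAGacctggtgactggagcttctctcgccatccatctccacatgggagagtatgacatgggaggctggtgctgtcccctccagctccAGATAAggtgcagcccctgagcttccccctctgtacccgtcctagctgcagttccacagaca
Gfi1b 4.94 kb downstream, chr2:28616940-28617140: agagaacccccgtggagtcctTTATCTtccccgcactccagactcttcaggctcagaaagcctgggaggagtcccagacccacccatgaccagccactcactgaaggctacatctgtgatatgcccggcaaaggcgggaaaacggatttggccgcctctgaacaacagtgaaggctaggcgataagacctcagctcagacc
Gfi1b 19.6 kb downstream, chr2:28602273-28602473: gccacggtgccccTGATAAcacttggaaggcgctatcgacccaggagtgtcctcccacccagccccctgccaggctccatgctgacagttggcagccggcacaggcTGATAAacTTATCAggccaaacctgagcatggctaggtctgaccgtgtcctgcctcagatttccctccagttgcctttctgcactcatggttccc
Zfpm1 8.08 kb upstream, chr8:122273961-122274161: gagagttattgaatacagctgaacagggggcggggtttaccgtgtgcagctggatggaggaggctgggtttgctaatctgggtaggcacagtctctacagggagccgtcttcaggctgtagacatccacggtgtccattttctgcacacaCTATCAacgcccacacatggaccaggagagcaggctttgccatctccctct
Rcor1 47.1 kb upstream, chr12:110992129-110992329: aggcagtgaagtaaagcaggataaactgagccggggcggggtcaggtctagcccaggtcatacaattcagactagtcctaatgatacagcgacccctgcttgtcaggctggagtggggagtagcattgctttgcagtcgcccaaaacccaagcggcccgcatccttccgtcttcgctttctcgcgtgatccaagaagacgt

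In the Gfi1 region 2 GATA matches overlap by a base and lie between 2 RUNX matches, all read on the minus strand. The capitals nearest the start of the Cbfa2t3 region are 1 paired element on the minus strand, and a second GATA match follows on the plus strand. The second Gfi1b region holds 3 GATA matches, 2 of them facing each other.

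The 2 promoters of low fold that hold a paired element are shown, read 5′ to 3′ on the strand of the gene. Each runs from 250 bases before to 50 bases after the start that RefSeq gives on GRCm38.p6. Capitals mark GATA matches and paired elements.
Gfi1b promoter, minus strand, chr2:28621933-28622232: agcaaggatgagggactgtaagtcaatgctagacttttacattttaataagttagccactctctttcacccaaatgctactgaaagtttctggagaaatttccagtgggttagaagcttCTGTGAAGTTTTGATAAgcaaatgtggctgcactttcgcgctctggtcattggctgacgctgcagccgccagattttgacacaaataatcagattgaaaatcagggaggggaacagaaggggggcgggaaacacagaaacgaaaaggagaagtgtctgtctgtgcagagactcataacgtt
Cbfa2t3 promoter, minus strand, chr8:122699060-122699359: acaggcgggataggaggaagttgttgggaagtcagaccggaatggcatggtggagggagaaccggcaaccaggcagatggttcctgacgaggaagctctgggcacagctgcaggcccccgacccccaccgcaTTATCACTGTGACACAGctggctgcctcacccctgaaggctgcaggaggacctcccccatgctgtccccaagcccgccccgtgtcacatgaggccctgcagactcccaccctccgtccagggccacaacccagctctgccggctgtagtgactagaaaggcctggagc

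The RefSeq table held promoters for 7 of the 9 genes, with more than 1 start for Gfi1 and Cbfa2t3. Of these windows, those of Gfi1b and of the most upstream Cbfa2t3 start held a GATA match and a paired element, and the others held neither. Over all 32851 RefSeq promoters of that length, 29.8% held a GATA match and 1.46% a paired element. In the Gfi1b window 234 of the 300 bases lay in a region of the conservative list, and in this Cbfa2t3 window 0 did.

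The promoters of Runx1t1, Cbfa2t2, Rcor1 and Kdm1a had folds of 7.16 or more in both libraries, whereas those of Zfpm1, Gfi1b and Cbfa2t3 stayed under 5 and those of Zfpm2 and Gfi1 were not called. In bulk cells a lower fold can mean that the site was open in fewer cells or less open in each. A higher local background also lowers the fold, and these cannot be told apart here. A promoter region was present in both strict lists for 5 of the 9 genes (55.6%, Wilson 95% interval 26.7 to 81.1, counting error only), against 45.7% of all protein-coding genes, which lies within that interval. These 5 were Zfpm1, Cbfa2t2, Runx1t1, Kdm1a and Rcor1, and the other 4 were in neither strict list. In both pseudoreplicated lists 7 of 9 had one, against 56.5% of all genes, and in the conservative list 6 of 9, against 54.5%.

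**Figure D1:**
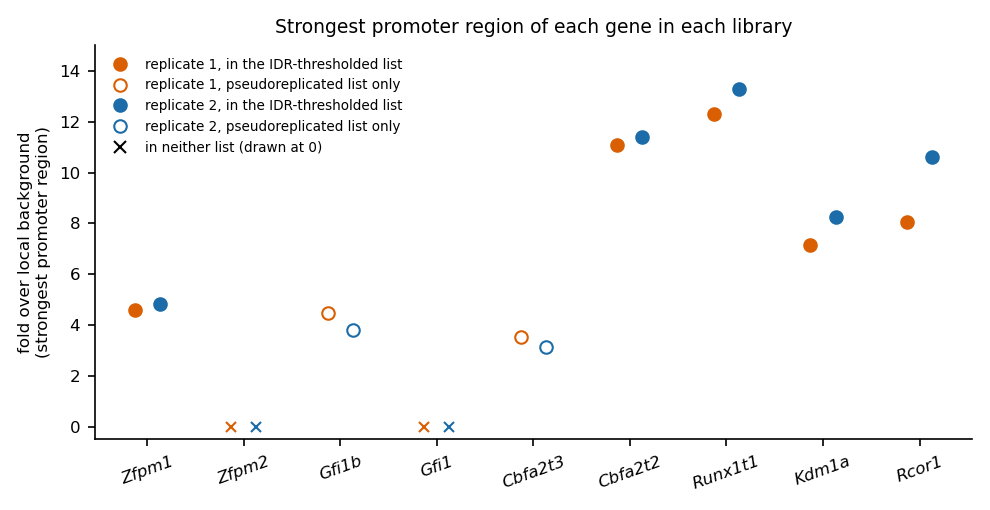
Fold over local background (y axis) of the strongest promoter region of each gene (x axis) in replicate 1 (orange) and replicate 2 (blue). For Gfi1b the points are different regions, the upstream one in replicate 1 and the one at the TSS in replicate 2. Filled points are in the strict list of that library, open points in its longer list alone, and crosses at 0 mark genes in neither; Runx1t1 lies highest, at 12.3 and 13.3, and Cbfa2t3 has the lowest point above 0, at 3.13.

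The Zfpm1 gene (ENSMUSG00000049577.15, chr8:122282141-122337251, plus strand) has 1 annotated TSS. Its promoter region had a fold of 4.58 in replicate 1 and 4.82 in replicate 2. Both are close to the bottom of the called promoters: 2.7% of the genes called in replicate 1 and 2.5% of those called in replicate 2 had a lower fold. The pooled region, chr8:122281019-122282140, was 1122 bp wide, ended at the TSS with its summit 206 bp upstream, and had a pooled fold of 4.73 with a −log10 p of 67.2. That significance is close to the median of all promoter regions, 67.5, while the fold is under their median of 7.53. The 1 kb around this TSS is rich in CpG, with a GC content of 75.3% and an observed over expected CpG ratio of 0.97, against a median ratio of 0.56 over all genes.

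For its paralogue Zfpm2, known for its part in heart and gonad development, no promoter region was found in any of the 6 lists used, at either of its 2 TSS (chr15:40655035-41104592, plus strand). The Zfpm2 start also has a CpG ratio above the median of all genes, 0.69.

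The repressor gene Gfi1b also had more promoter signal than its paralogue Gfi1, which is known for its part in blood stem cells, neutrophils and lymphocytes. Gfi1b (chr2:28609450-28621982, minus strand) had promoter regions in the longer lists alone. The region at its TSS, chr2:28621728-28622166, had folds of 3.63 in replicate 1 and 3.78 in replicate 2 and a pooled fold of 3.93, with a −log10 p of 24.2. A second region, with its summit 720 bp upstream in the pooled replicated list, had folds of 4.47 in replicate 1 and 3.15 in replicate 2. Which of the pair was stronger therefore differed between the libraries. Gfi1 (chr5:107716657-107726036, minus strand) had no promoter region in the lists of either library. The replicated list of both libraries, which is longer than the conservative one, held 1 at a fold of 3.10.

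Among the ETO family, the blood corepressor gene had the lowest promoter fold. Cbfa2t3 (chr8:122625141-122699109, minus strand) had folds of 3.52 in replicate 1 and 3.13 in replicate 2, in the longer lists alone, and no promoter region in the conservative list. Cbfa2t2, which encodes the widely expressed MTGR1 (chr2:154436481-154539356, plus strand), had 11.1 in replicate 1 and 11.4 in replicate 2, and 85.5% and 84.2% of called genes were lower. Runx1t1 (chr4:13743436-13893649, plus strand), the partner fused to RUNX1 in a form of human acute myeloid leukaemia, had the highest folds of the 9 genes, 12.3 and 13.3, above 92.7% and 95.7% of called genes. Both of these exceed the Cbfa2t3 values in the same library by more than any difference between the libraries within a gene.

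The strongest Runx1t1 region did not lie at its most upstream start. That region, chr4:13785674-13786130, had its summit 1101 bp past a TSS that lies 41.3 kb inside the gene, with a pooled fold of 14.2. Its pooled −log10 p, 95.7, was under those of the Cbfa2t2 promoter, 156, and the Rcor1 promoter, 155. A second region, chr4:13750749-13752125, covered the TSS 7.86 kb inside the gene, with folds of 8.78 in replicate 1 and 7.94 in replicate 2. At the most upstream TSS the strongest region had 4.41 in replicate 1 and 5.00 in replicate 2, in the longer lists alone. Counting the most upstream TSS alone, Runx1t1 would not be called in the strict lists.

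The promoters of LSD1 and CoREST were in both strict lists. Kdm1a (chr4:136550540-136602723, minus strand) had folds of 7.16 in replicate 1 and 8.26 in replicate 2, above 33.0% and 43.4% of called genes. Rcor1 (chr12:111039351-111115901, plus strand) had 8.05 in replicate 1 and 10.6 in replicate 2, the widest gap between the libraries, a ratio of replicate 2 to replicate 1 of 1.31, and lay above 47.1% and 75.2% of called genes. The same ratio was between 1.03 and 1.15 for the other 4 genes in both strict lists. The median over all genes with a promoter region was 8.24 in the strict list of replicate 1 and 8.69 in that of replicate 2.

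The CpG ratio was taken around the most upstream start alone, while a call could come from any start of the gene. It was 0.91 to 0.97 for the 5 genes in both strict lists and 0.25 to 0.69 for the other 4, with Cbfa2t3 at 0.25 and Gfi1b at 0.32. The 0.91 is that of Runx1t1 and belongs to a start found in the longer lists alone. Its strict regions lay at starts 7.86 and 41.3 kb inside the gene. For these and for the internal starts of Cbfa2t3 the ratio was not taken, so the split mixes different starts. Over all genes the median was 0.74 for those called in both strict lists and 0.26 for those that were not. Its part in the calls was not tested.

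Away from the promoters the order changed: in the conservative list FOG1, ETO2, GFI1B and CoREST had the most distal regions within the 50 kb windows. Zfpm1 and Cbfa2t3 had 11 each, and 98.6% of all protein-coding genes had fewer. Gfi1b and Rcor1 had 8 each, more than 95% of genes. Cbfa2t2 had 6, Gfi1 and Kdm1a 2 each, Zfpm2 1 and Runx1t1 0. The Runx1t1 count leaves out a region inside the gene, with its summit 1101 bp past a TSS, that counted as a promoter region by overlap. At least 8 distal regions were counted for 4 of the 9 genes, against 5.02% of all genes. That cut is the count of Gfi1b and Rcor1 themselves, so this contrast only describes the counts. At least 1 was counted for 8 of 9, against 74.0%. The median was 6 for the 9 genes and 2 for all genes. The places of Gfi1b and Rcor1 depended on the window: with each region given to its nearest TSS, Gfi1b had 3 and Rcor1 4, under the 5 of Cbfa2t2, and inside the gene alone they had 1 and 2, under its 6. Zfpm1 had 9 by nearest TSS and 8 inside the gene, and Cbfa2t3 10 and 6.

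**Figure D2:**
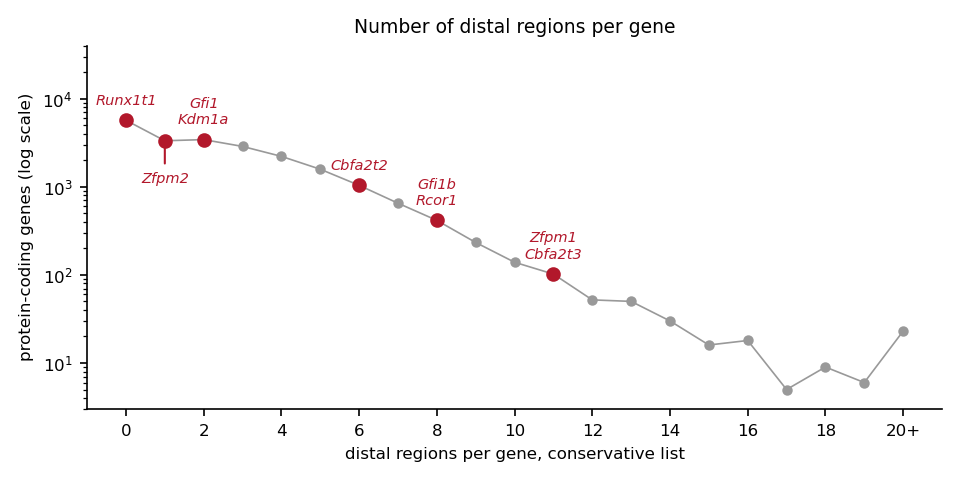
Number of protein-coding genes (y axis, log scale) at each number of distal regions per gene in the conservative list (x axis, 20 or more joined). Red points carry the names of the genes described here. Zfpm1 and Cbfa2t3 stand at 11, and Runx1t1 at 0 under the overlap rule for promoter regions.

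In the strict list of each library Zfpm1, Cbfa2t3 and Rcor1 had the most, and Gfi1b did not exceed Cbfa2t2. In replicate 1 the counts were 7 for Zfpm1, 7 for Cbfa2t3, 6 for Rcor1, 4 for Gfi1b and 4 for Cbfa2t2. In replicate 2 they were 7 for Zfpm1, 6 for Cbfa2t3, 7 for Rcor1, 4 for Gfi1b and 5 for Cbfa2t2. Gfi1 and Kdm1a had 1 in each library, and Zfpm2 and Runx1t1 had 0 in each. Zfpm1, Cbfa2t3 and Rcor1 differed from one another by no more than 1 in either library.

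Long genes are searched over more DNA, so the counts were also set against the length searched. Zfpm1 had 10.47 regions per 100 kb, and 99.7% of genes were less dense. Cbfa2t3 had 8.87, Gfi1b 8 and Rcor1 6.32, against a median of 2.00 over all genes. Cbfa2t2, with its 103 kb gene, had 3.92. Zfpm2, the longest gene of the set at 450 kb, had 0.20, and 26.2% of genes were less dense.

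**Figure D3:**
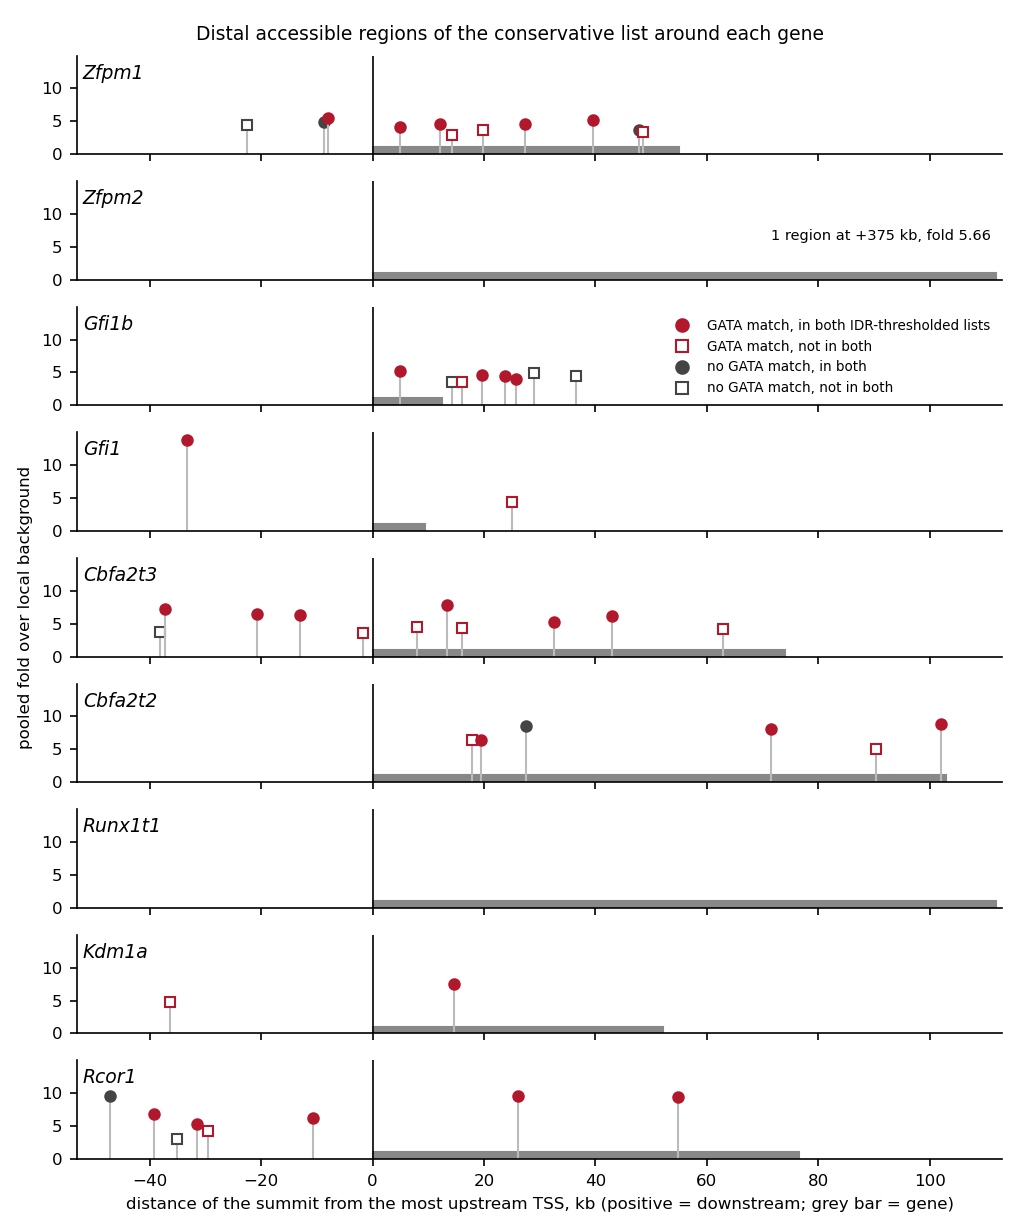
Pooled fold over local background (y axis) of each distal region against the distance of its summit from the most upstream TSS in kb (x axis, positive downstream, grey bar the gene), 1 panel per gene. Red points hold a GATA match and filled circles are in both strict lists. Zfpm1 has 11 regions at folds of 2.93 to 5.44 along and before the gene, and Gfi1 a single high one at 13.9. Runx1t1 has none under the overlap rule for promoter regions.

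The distal regions of Zfpm1 were many and low. Of the 11, 8 lay in introns of the gene and 3 upstream, and their pooled folds ran from 2.93 to 5.44, all under the median of all distal regions, 6.36. The strongest, chr8:122273897-122274232, lay 8.08 kb upstream in no gene, with folds of 4.86 in replicate 1 and 5.82 in replicate 2. Its neighbour at 8.78 kb upstream, chr8:122273211-122273686, had 4.29 and 5.49 and no GATA match. The intronic region 39.6 kb downstream, chr8:122321310-122322317, had 5.03 and 5.09 and the highest −log10 p of the Zfpm1 regions, 76.5, above that of 89.1% of all distal regions. In both strict lists 7 of the 11 were found, and in both longer lists all 11. The only distal region of Zfpm2, chr15:41029628-41030020, lay in an intron 375 kb from the most upstream TSS, with folds of 4.65 in replicate 1 and 5.51 in replicate 2 in the longer lists.

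Around Gfi1b all 8 distal regions lay downstream of the start, 1 in an intron and 7 in no gene beyond its 3′ end. Enhancers downstream of Gfi1b have been described in mouse blood cells. The strongest was the intronic one, chr2:28616797-28617507, with 5.19 in replicate 1 and 5.08 in replicate 2. The region 19.6 kb downstream, chr2:28602161-28602585, had 4.80 and 4.85, and the region 29.0 kb downstream, chr2:28592889-28593131, had 4.26 and 4.90 in the longer lists. The 8 pooled folds, 3.52 to 5.27, were again all under the median of all distal regions. The starts of Gtf3c5 and Tsc1 also lie in the window, and 3 of the 8 regions have the Gfi1b start as their nearest, so which gene they serve is not known from these data.

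Gfi1 had the reverse form: few regions, 1 of them very strong. The region chr5:107759001-107759883 lies 33.3 kb upstream, inside the neighbouring gene Evi5, and had folds of 11.2 in replicate 1 and 14.5 in replicate 2. Its pooled fold of 13.9 was above that of 99.0% of all distal regions, and its −log10 p was 114. The other Gfi1 region, 25 kb downstream inside 4930428O21Rik, had 4.13 and 3.98 in the longer lists. No distal region of Gfi1b in either library came near the fold of this Gfi1 region, and the promoters of both genes stayed under the strict threshold.

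The ETO family genes differed in number and place. Cbfa2t3 had 6 regions in introns and 5 upstream, with pooled folds of 3.55 to 7.85. The strongest, chr8:122685353-122685911, lay in an intron 13.4 kb downstream, with 7.61 in replicate 1 and 7.27 in replicate 2. The region 37.2 kb upstream, inside C230057M02Rik, had 7.16 and 7.70. The region 20.7 kb upstream, chr8:122719641-122721196, was the widest of all 49 at 1556 bp, with 5.81 and 6.77. All 6 regions of Cbfa2t2 lay inside the gene, and 5 of the 6 were above the median fold of all distal regions. Its strongest, chr2:154538577-154539224, overlapped an exon 102 kb from the start, with 8.04 in replicate 1 and 7.90 in replicate 2, and those at 27.5 kb and 71.6 kb had 8.11 and 7.65, and 6.61 and 7.61. For Runx1t1 each of the 6 lists used gave 0 distal regions, while its promoter fold was the highest of the 9 genes. Both the rank and the 0 rest on the region that reaches into the 1 kb window from a summit beyond it. Placed by its summit, that region would be a distal region inside the gene, and its pooled fold of 14.2 is above that of each of the 49. The Runx1t1 region that covers a TSS, at 8.78 in replicate 1 and 7.94 in replicate 2, was lower than the Cbfa2t2 promoter.

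Of the histone demethylase and its scaffold, the scaffold gene had the richer surroundings. Kdm1a had an intronic region 14.6 kb downstream, chr4:136587512-136588304, with 6.96 in replicate 1 and 7.29 in replicate 2, and 1 inside Lactbl1, 36.4 kb upstream, with 4.87 and 5.17 in the longer lists. Rcor1 had 6 regions upstream and 2 inside the gene. The strongest, chr12:110991448-110992900, lay 47.1 kb upstream in no gene, with 8.97 in replicate 1 and 9.44 in replicate 2 and the highest −log10 p of the 49, 120. The intronic regions at 26.1 kb and 54.9 kb had 8.06 and 9.58, and 7.94 and 9.85. These 3 were above the fold of 87.1% to 87.8% of all distal regions. For 4 of the 8 regions the Rcor1 start was the nearest. The strongest region, 47.1 kb upstream, was not among them: the start of another protein-coding gene, outside the window, was nearer.

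Of the 49 regions, each counted for 1 of the 9 genes, 25 lay inside their own gene (24 in introns and 1 at an exon), 9 inside another gene and 15 in none. Both strict lists held 29 of them (59.2%, Wilson 95% interval 45.2 to 71.8), against 38.9% of all distal regions of the conservative list. Both longer lists held 47 of them (95.9%, 86.3 to 98.9), against 90.9%. The exceptions were a Cbfa2t2 region 90.3 kb from the start, found in replicate 2 alone at 5.06, and an Rcor1 region 35.1 kb upstream, found in replicate 1 alone at 2.82. Among the 47, 39 had the higher fold in replicate 2, with a median ratio to replicate 1 of 1.11 and a range of 0.90 to 1.46. Over all 29784 distal regions in both longer lists the ratio was above 1 for 73.5% and its median was 1.09, so the median gap between the libraries at these genes is near that of the whole list.

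Around these genes the regions were lower in fold but higher in significance than all distal regions by their medians. The median pooled fold of the 49 regions was 4.98, against 6.36 over all distal regions, while their median −log10 p was 41.9, against 32.5. Under the median fold were 34 of the 49 and above the median significance 29. Zfpm1 gave 11 of the 34, Gfi1b 8, Cbfa2t3 7, Rcor1 4, and Zfpm2, Gfi1, Cbfa2t2 and Kdm1a 1 each. The low fold did not hold for every gene: the median fold was 6.61 for Rcor1, 7.23 for Cbfa2t2 and 9.18 for Gfi1. The Gfi1 value is the midpoint of only 2 regions, at 4.45 and 13.9. Each region above the median fold was also above the median significance. Under the median fold and yet above the median significance were 14 of the 49 (28.6%), against 9.47% of all distal regions. Zfpm1 gave 6 of these 14, Gfi1b 3, Cbfa2t3 3 and Rcor1 2. The median width was 476 bp, against 472 bp. The read counts and local background behind each fold were not analysed here, so their part in this was not tested.

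**Figure D4:**
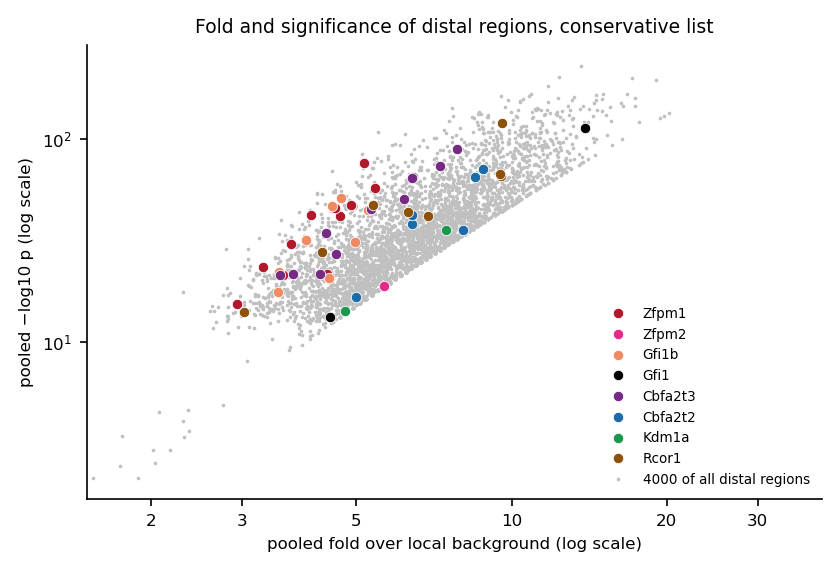
Pooled −log10 p (y axis, log scale) against pooled fold over local background (x axis, log scale) of the 49 distal regions, coloured by gene, and of a random draw of all distal regions in grey. The Zfpm1 and Gfi1b points lie at folds under 6.36, the median of all distal regions, 6 of 11 and 3 of 8 of them above the median −log10 p of 32.5, and the Gfi1 region at 13.9 lies far to the right.

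Within 100 bp of the summit, GATA was the motif that stood farthest above its share of all distal regions in percentage points. A match within 100 bp of the summit was found in 38 of 49 (77.6%, Wilson 95% interval 64.1 to 87.0), against 53.8% of all distal regions. Regions with at least 2 matches were 18 of 49 (36.7%, 24.7 to 50.7), against 21.7%. By gene, a GATA match was present in 10 of 11 regions of Cbfa2t3, 8 of 11 of Zfpm1, 5 of 8 of Gfi1b, 6 of 8 of Rcor1, 5 of 6 of Cbfa2t2, and in both of Gfi1 and both of Kdm1a. Zfpm2 had none in its 1 region. The windows were also richer in GC, with a median of 54.2%, against 50.2% over all distal windows.

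Within the same 100 bp the other motifs were nearer the level of all distal regions. An E-box (CANNTG) was in 77.6% of the 49, against 71.5%. The paired element was in 5 of 49 (10.2%, 4.44 to 21.8), against 9.19%. Of those 5 regions, 4 belonged to Cbfa2t3 and 1 to Rcor1, and the 4 include the 1 printed above. RUNX matches were in 26.5%, against 24.6%, and KLF matches (CCACACCC, CCGCACCC or CCNCNCCC) in 32.7% (21.2 to 46.6), against 25.4%. In wider windows this order did not hold: within 200 bp of the summit the KLF share was 63.3%, against 37.8%, and over the whole region 69.4%, against 43.6%, a wider gap than that of GATA (87.8%, against 68.0%, and 87.8%, against 69.4%). ETS matches (CCGGAA or AGGAAG) were in 18.4% (9.98 to 31.4), against 29.8%. NF-E2 matches (TGANTCA) were in 6.12%, against 7.28%, and the CTCF core in 2.04%, against 3.01%.

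The motif read by GFI1 and GFI1B themselves was rare. Its strict form (AATCACNGC) was in 0 of the 49 windows, which allows a share of up to 6.12% by the limit of 3 counts, or 7.27% by the Wilson limit, against 0.391% of all distal regions. Its loose form (AATCNNNGC), which takes in the strict one, was in 2 of 49 (4.08%), against 5.16%. At this number of regions no difference from all distal regions could be seen. A match is a description of letters and not a measured binding site, and GATA matches can lie inside the paired element and E-boxes can overlap it.

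**Figure D5:**
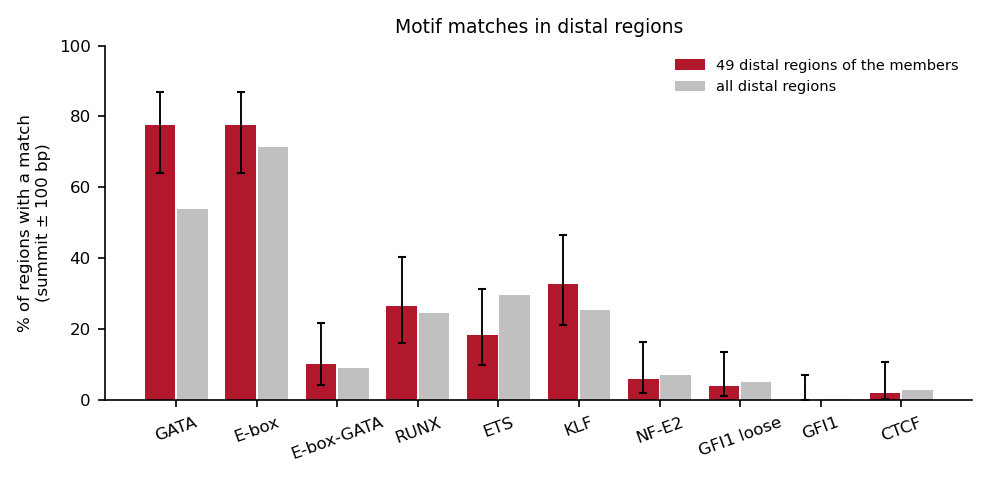
Share of regions in percent (y axis) with at least 1 match within 100 bp of the summit for each motif (x axis), in the 49 distal regions of the 9 genes (red, with Wilson 95% intervals) and in all distal regions of the conservative list (grey). The GATA interval, 64.1 to 87.0, lies above the grey bar at 53.8, and the other intervals include their grey bar.

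The partners of these proteins were taken from a list of 43 genes of the LSD1-CoREST, NuRD and CtBP complexes, the ETO partners and the other SNAG repressors. A promoter region was in both strict lists for 31 of the 43 (72.1%), against 45.7% of all protein-coding genes. It was there for 9 of 11 LSD1-CoREST genes, 8 of 11 NuRD genes, both CtBP genes, 11 of 14 ETO partners and 1 of 5 SNAG genes. In neither strict list were 9: the CoREST paralogue Rcor2, the NuRD genes Chd3 and Mta1, the ETO partners Tbl1x, Tcf12 and Ssbp3, and the SNAG genes Insm1, Scrt1 and Scrt2. The longer lists of both libraries held a promoter region for 42 of the 43, all but Insm1. In the upper 50% of regions by fold the partners called in both libraries were 12 of the 43, near the 27.7% of all protein-coding genes under that cut. The partners had a mean of 4.98 distal regions, against 2.63 over all genes, and the most were around Gse1 with 29, Mta3 with 16 and Chd3 with 11. The median was 4, against 2 over all genes. These counts were not set against the length searched. Gse1, a subunit found with LSD1 and CoREST, had a promoter fold of only 3.99 in replicate 1 and 5.08 in replicate 2.

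For the 3 blood regulators the genes of most similar profile were found over 4 values, the promoter fold in each longer list and the number of distal regions in each strict list, as a Euclidean distance between standardised values. The nearest to Zfpm1 was Mreg, at a distance of 0.068, with promoter folds of 4.41 in replicate 1 and 5.23 in replicate 2 and 7 distal regions in each. The nearest to Gfi1b was Rbms1 at 0.086, and the nearest to Cbfa2t3 was Slc48a1 at 0.229. The Gfi1b promoter folds used there came from different regions in replicate 1 and replicate 2.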

How the data were processed

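The authors deposited peak lists on mm10, per the file headers and labels: an IDR-thresholded and a pseudoreplicated list for each of the 2 libraries, and a conservative and a replicated list from both. In the deposited files the ratio column holds the fold of each peak over local background, and a second deposited column holds its −log10 p, both read from their place and values. Folds rank and describe peaks within a list. For the aligner, the peak caller and the transposase offset, details were not given in the sources used here. The number of reads was not used, so the depth is unknown.

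Peaks that overlapped or touched were merged into regions that keep the summit and fold of their strongest peak (Python 3.11.15, numpy 2.4.6). A read-through gene that spans Zfpm1 and Cbfa2t3 was left out when regions were placed inside genes. Any overlap of 1 bp counted as shared. GENCODE M21 gave 21853 protein-coding genes and 54361 TSS. Motifs, 10 in all, were searched in 201 bp windows with pysam 0.24.0. No test was made, since there is 1 group and the members and lists were chosen with earlier results of these data known. Intervals cover counting error only. Merging, assignment and the search for GATA matches were tested on simulated data. The search for the other motifs was not. Named distal regions are the 3 of highest fold per gene, or all where a gene has fewer than 4, besides those named as found in 1 library alone. Partners are named where no strict list holds their promoter or where their distal regions are the 3 highest counts. Of 3 similar genes by rule, the nearest of each is given.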

Additional observations from a re-analysis of the deposited data

How the results depend on the processing

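Limits come first from the lists. Folds were not scaled between libraries, a 50 kb window does not assign a region to a gene, and 49 regions leave wide intervals. No paired analysis was possible because both libraries belong to 1 group. Of the alternatives for the main counts and shares, 19 stayed close to the reported value and 17 did not. For single genes and other motifs the numbers were 88 and 71. Close was a broad label: totals of 35 to 70 distal regions counted as close to 49, and 42 partner promoters as close to 31. A share counted as close inside the Wilson interval of the reported share. Distal regions of the 9 genes, 49 in the conservative list, numbered 30 to 31 in the strict list of either library alone, 88 in the replicated list, 78 with each summit counted, 25 inside the gene only and 11 in the upper 50% of regions by fold. In that upper part, the promoters in both libraries were 3 of the 9 genes (Zfpm1 and Kdm1a dropped out, an alternative chosen after seeing the data) and 12 of the 43 partners, against 27.7% of all protein-coding genes, and partners had a mean of 1.42 distal regions, against 1.08 over all genes. That mean was 7.56 in the longer list of replicate 2, against 3.73, and 2.58 to 2.77 in either strict list, against 1.26 to 1.40. The share in both libraries was 95.9% with the longer lists. The GATA share was 55.1% within 50 bp of the summit, against 39.3% of all distal regions, 87.8% within 200 bp, against 68.0%, 87.8% in the whole region, against 69.4%, and 83.9% to 90.0% in the strict list of 1 library, against 57.8% to 58.7%. The paired element was in 2.04% within 50 bp, against 6.16% of all distal regions, and in 16.3% within 200 bp, against 11.0%, so its order against all distal regions depended on the window. Only Zfpm1 and Gfi1b among the genes with several distal regions kept 0 of them in the upper part.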
